A study of Homo sapiens with 30 samples.

Results

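The later phase of a BMP7 time course was set against the earlier one: the 10 arrays of 12 and 24 h against the 10 arrays of 3 and 6 h, out of 30 arrays in the series. The members were chosen by time point alone, and every cell line gave 4 of these 20 arrays. The 5 established breast cancer cell lines were HCC1954 (ERBB2-amplified), MDA-MB-231 (mesenchymal-like, without hormone receptors), MDA-MB-361 and ZR-75-30 (estrogen receptor positive with ERBB2 gain) and T-47D (estrogen receptor positive). Each array held cRNA of cells treated with recombinant BMP7 (50 ng/ml), labeled with Cy5, beside cRNA of vehicle-treated cells of the same line and time, labeled with Cy3. All lines thus had their own vehicle control at each time, the labels name no engineered change, and the lines stand for themselves, not for tumors. For each sample the cells of 3 cultures were pooled, with 1 array per line and time. In the main fit cell line was a fixed block, so differences in level between the lines do not enter the error. The p-values of that fit measure the spread that remains between arrays of the same line. A small p-value against vehicle therefore does not show that the lines answered alike. The 10 arrays of 30 min and 1 h, called the first hour, did not enter the comparison and served as a baseline where this is said.

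BMPs are secreted ligands of the TGF-β superfamily that bind pairs of serine-threonine kinase receptors. The receptors phosphorylate SMAD proteins, which enter the nucleus with SMAD4 and change transcription. Among their best known direct targets are the ID genes, whose products lack a DNA-binding domain and block basic helix-loop-helix transcription factors, and the inhibitory SMADs, which feed back on the pathway. The question asked here was which genes answered BMP7 late, which kept an early answer to the end of the day, and which lost it.

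The labeled lines were checked in the vehicle channel. The ERBB2 probe had a mean log2 signal of 17.0 in HCC1954, 17.3 in MDA-MB-361 and 16.5 in ZR-75-30, against 11.8 in MDA-MB-231 and 12.8 in T-47D. The ESR1 (estrogen receptor) probe was not well above background on any of the 4 arrays of MDA-MB-231. It was above background on all 4 of HCC1954, at 6.1, against 9.3 to 11.2 in the estrogen receptor positive lines. In MDA-MB-231 the CDH1 (E-cadherin) probe read 8.4, above background on all 4 arrays, where the other lines read from 14.2 to 16.9. The mesenchymal marker VIM read 16.8 in MDA-MB-231 but also 14.6 in HCC1954, and from 5.0 to 7.6 in the other lines. PGR (progesterone receptor) was above background on all 4 arrays of T-47D and on none of ZR-75-30. The leukocyte marker PTPRC and the liver marker ALB were above background on 0 of 4 arrays in each line, whereas the endothelial marker PECAM1 was so on all 4 arrays of HCC1954 and the fibroblast marker COL1A1 on all 4 of HCC1954, MDA-MB-361 and T-47D. Whether these 2 genes are expressed by the lines themselves was not tested.

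Some arrays stood apart. The SD of the log2 ratios over probes was 0.60 on the ZR-75-30 6 h array, against 0.17 to 0.40 on the others, and 6.32% of the spots of the MDA-MB-231 6 h array were marked as outliers. Both arrays and that of T-47D at 3 h were scanned in a second batch, whereas all 12 and 24 h arrays were scanned in the first. In 4 of the 5 lines the later arrays lay on another slide than the earlier ones, so slide and time cannot be told apart there, and only T-47D had arrays of both phases (6, 12 and 24 h) on 1 slide. Both channels were well above background for 53.8% to 68.3% of the probes, depending on the array.

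ID1, ID2 and ID3 were higher than vehicle in both phases, and the stretches before their start sites are shown because these members moved together. The sequences below are from RefSeq (GRCh38.p14), 250 bases before to 50 after the start of the gene. Capitals mark GGCGNC, a GC-rich SMAD motif, on either strand, which overlaps no other motif searched. It occurred once (n = 1) in ID1 and ID3 and at 2 places in ID2, but 48.9% of all 35116 promoters of this length hold it, so a match is a description only. The palindrome GGCGCC (in 19.2% of all promoters) was in none of the 3, and the short SMAD box GTCT (in 84.0%) in each of them.
ID1 promoter, chr20:31605039-31605338 (+ strand): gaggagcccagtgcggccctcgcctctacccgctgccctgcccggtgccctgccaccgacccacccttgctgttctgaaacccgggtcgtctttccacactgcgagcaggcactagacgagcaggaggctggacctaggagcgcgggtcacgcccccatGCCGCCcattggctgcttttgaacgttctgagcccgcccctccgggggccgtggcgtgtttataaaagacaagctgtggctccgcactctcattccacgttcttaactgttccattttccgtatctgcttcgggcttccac
ID2 promoter, chr2:8681806-8682105 (+ strand): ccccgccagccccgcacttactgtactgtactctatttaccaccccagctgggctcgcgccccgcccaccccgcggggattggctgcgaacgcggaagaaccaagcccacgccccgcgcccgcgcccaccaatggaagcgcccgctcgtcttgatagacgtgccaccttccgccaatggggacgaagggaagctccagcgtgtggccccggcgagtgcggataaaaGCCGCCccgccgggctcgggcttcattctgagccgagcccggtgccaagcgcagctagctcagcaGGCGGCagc
ID3 promoter, chr1:23559452-23559751 (- strand): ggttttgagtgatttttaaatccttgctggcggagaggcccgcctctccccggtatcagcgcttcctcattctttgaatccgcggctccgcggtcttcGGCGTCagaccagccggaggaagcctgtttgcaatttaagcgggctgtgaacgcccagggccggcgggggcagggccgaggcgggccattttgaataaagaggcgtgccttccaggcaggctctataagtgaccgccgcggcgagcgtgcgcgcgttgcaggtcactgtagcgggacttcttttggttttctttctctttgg

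ID1 was the gene with the largest mean ratio at 12 to 24 h among the probes that kept their change. In HCC1954 its log2 BMP7/vehicle ratio (probe at chr20:29657819-29657878, hg18) was 1.32 at 3 h, then 1.09, 1.15 and finally 0.99 at 24 h. In MDA-MB-231 the ID1 values were 1.91, 0.54, 2.10 and 2.62, in MDA-MB-361 1.47, 1.89, 0.88 and 1.06, in T-47D 0.69, 0.29, 0.58 and 0.84, and in ZR-75-30 0.41, 0.77, 0.55 and 0.74. All 20 values were above 0, and the values of the 2 phases overlapped. The fitted mean of ID1 was 1.04 (SE 0.13) at 3 to 6 h and 1.15 (SE 0.13) at 12 to 24 h, both past the threshold against 0 (limma, adjusted p = 6.18e-05 and 1.92e-05), which is 2.05-fold and 2.22-fold. The difference of 0.11 (SE 0.19) did not pass (limma, unadjusted p = 0.545), and its 95% interval of -0.27 to 0.50 allows a fall as well as a rise.

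**Figure D1:**
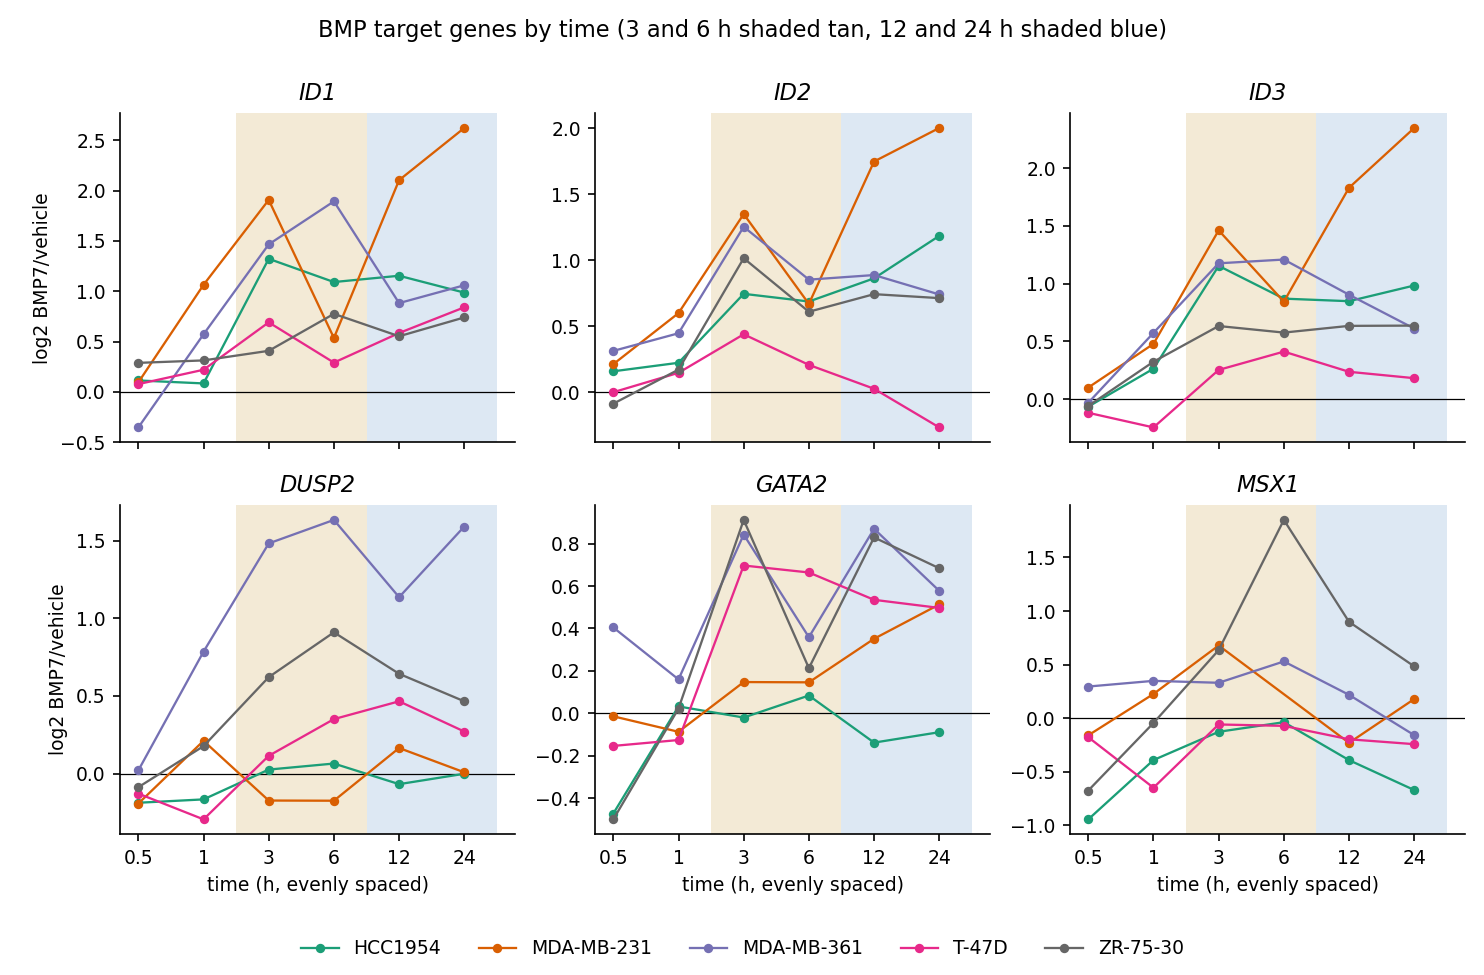
Log2 BMP7/vehicle ratio of 6 BMP target genes (y axis) at 0.5, 1, 3, 6, 12 and 24 h (x axis, evenly spaced), 1 point per array and 1 line per cell line, with a missing point where the spot was marked as an outlier. ID1, ID2 and ID3 were raised at 3 to 6 h and at 12 to 24 h, MDA-MB-231 reached the highest values at 24 h, and MSX1 was lower in the later phase in all 5 lines without passing the test.

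ID2 and ID3 were also higher than vehicle in both phases (limma, adjusted p = 4.88e-05 and 1.56e-05 for ID2, 1.81e-05 and 7.17e-06 for ID3). ID2 (probe at chr2:8740093-8740481, hg18) ranged from 0.21 to 1.35 with a median of 0.71 at 3 to 6 h, and from -0.27 to 2.001 with a median of 0.80 at 12 to 24 h. The value below 0 was that of T-47D at 24 h, where ID2 went from 0.44 at 3 h to 0.21, 0.025 and -0.27 at the later times. Its phase means were 0.78 and 0.86 (SE 0.096 each), with a difference of 0.081 and an interval of -0.20 to 0.37. A second probe of ID2, above background in both channels on 19 of the 20 arrays and therefore outside the fit, had means of 1.37 and 1.18 in the fit that left out single dim spots (adjusted p = 1.12e-08 and 4.44e-08). ID3 (probe at chr1:23758253-23758312, hg18) ranged from 0.25 to 1.46 at 3 to 6 h and from 0.18 to 2.35 at 12 to 24 h, with medians of 0.86 and 0.74 and all 20 values above 0. Its phase means were 0.86 and 0.92 (SE 0.093 each), and the interval of the difference was -0.21 to 0.34.

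The values of the lines ran apart, but the test of a difference between lines did not pass. In MDA-MB-231, ID1, ID2 and ID3 were higher at 12 to 24 h than at 3 to 6 h by 1.14, 0.87 and 0.94 on the log2 scale, with the lower of its earlier values on the 6 h array, the one with the many outlier spots. In MDA-MB-361 the same genes were lower later, with differences of -0.71, -0.24 and -0.43. In the other lines the differences lay between -0.44 (ID2 in T-47D) and 0.31 (ID2 in HCC1954). By the paper's methods, MDA-MB-231 and T-47D were grown at serum concentrations other than the recommended ones, so line and serum cannot be told apart for them. A limma F test of line by phase gave unadjusted p = 0.0164 for ID1, 0.00667 for ID2 and 0.00302 for ID3, and an adjusted p of 1 for each. With MDA-MB-231 left out, the mean difference was -0.14 for ID1, -0.11 for ID2 and -0.16 for ID3, so the sign of these 3 small differences rests on that line, and it also turned with median scaling.

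Over all genes, no probe passed the test of the later against the earlier phase. Of 41000 probes, 17867 were well above background in both channels on all 20 arrays, and 17819 with at least 1 value per line and phase were tested, of which 14176 carry a gene symbol. With limma and cell line as a block, 0 probes (0.0%) were higher and 0 (0.0%) lower at 12 to 24 h at an adjusted p under 0.05, and the smallest adjusted p was 0.585. Without adjustment, 719 probes (4.04%) were higher and 745 (4.18%) lower at p under 0.05. Without the ZR-75-30 6 h array there were again 0 calls, with 965 unadjusted in either direction in place of 1464 (8.22%). All other fits of this comparison, by the normalizations, filters and blocks tried, also gave 0 calls.

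The missing calls set bounds on the size of a common change rather than show that the phases were alike. The median SE of the difference was 0.0876 on the log2 scale. For 17816 of the 17819 probes the 95% interval of the difference lay within -1 to 1, that is, within 2-fold either way, and for 16823 (94.4%) it lay within -0.5 to 0.5. The fitted differences themselves ran from -0.66 to 0.52. Both phases did hold changes against vehicle. At 3 to 6 h, 1228 probes (6.89%) were higher and 1194 (6.7%) lower than 0, and at 12 to 24 h 1666 (9.35%) were higher and 1413 (7.93%) lower, with 1224 past the threshold in both phases in the same direction. BMP7 was always in Cy5, so any fixed dye bias enters these means, whereas it cancels in the difference between the phases.

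**Figure D2:**
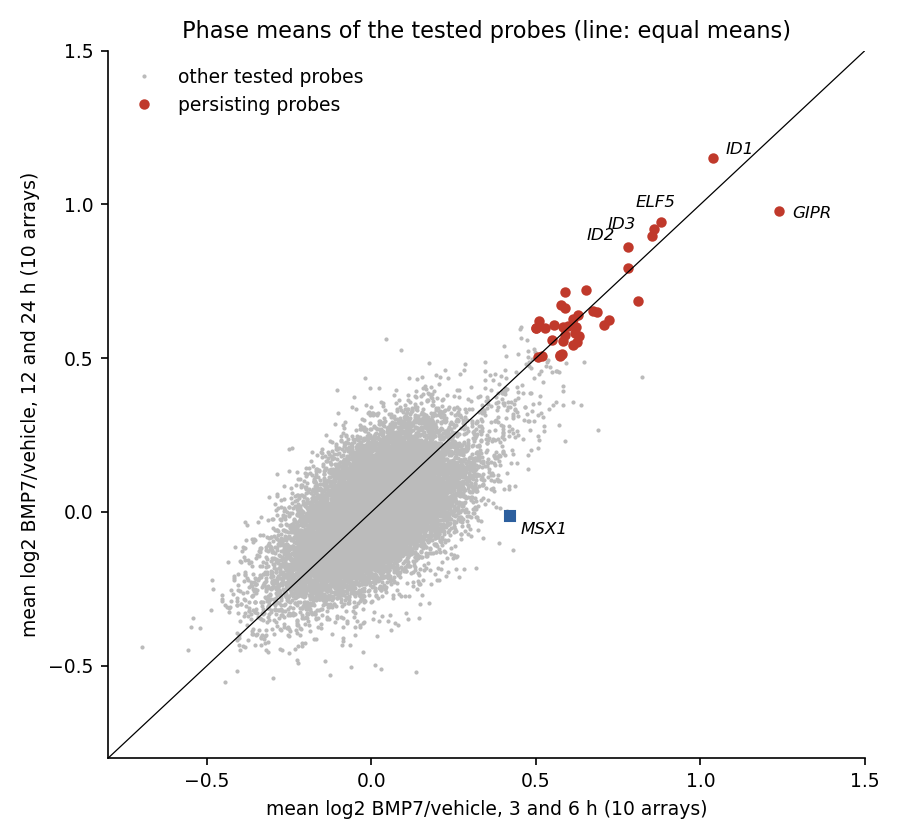
Mean log2 BMP7/vehicle ratio of 17819 probes at 3 and 6 h (x axis) and at 12 and 24 h (y axis), each over 10 arrays of 5 lines, with the diagonal of equal means. The 38 persisting probes (red) sit along the diagonal above 0.5 in both phases, with ID1 highest at 12 to 24 h, and MSX1 (blue square) lies below it at 0.42 and -0.012.

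By the classes set for this comparison, 0 probes (0.0%) came late, 0 (0.0%) faded and 38 (0.213%) persisted, all of the 38 upward. A probe persisted if both means were past the threshold in the same direction, each at least 0.5 in size and the smaller at least 0.5 times the larger, without a call between the phases. The values closest to the size limit were 0.5002 (an unnamed probe) and 0.5003 (DIRC1) inside it and 0.4959 (an unnamed probe) outside. Of the 38, 23 carry a symbol, and 37 were above 0 in both phases in all 5 lines, the exception being ID2 in T-47D. Without the ZR-75-30 6 h array 41 probes persisted, which include 36 of the 38 (94.7% of the one list and 87.8% of the other).

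All of the 38 already had a mean ratio above 0 in the first hour. Their median of the mean ratio was 0.46 in the first hour, 0.61 at 3 to 6 h and 0.61 at 12 to 24 h, and 14 of the 38 were at 0.5 or more in the first hour. GIPR, the receptor of the incretin GIP, had means of 1.34 in the first hour, 1.24 at 3 to 6 h and 0.98 at 12 to 24 h, and all of its 20 values from 3 to 24 h were above 0, from 0.33 to 2.24 in the earlier and from 0.38 to 1.75 in the later phase. A second GIPR probe read otherwise, with means of 0.24 (adjusted p = 0.172) and -0.14 (adjusted p = 0.451). ELF5, a transcription factor of the luminal alveolar lineage, had means of 0.64, 0.88 and 0.94, with 16 values left after outlier spots were removed. Neither differed from the first hour past the threshold (limma, adjusted p = 0.754 and 0.134 for GIPR, 0.452 and 0.281 for ELF5). Against the first hour, 4 of the 38 passed in both phases: ID1 (0.79 and 0.91), ID2 (0.56 and 0.65), ID3 (0.74 and 0.80) and an unnamed probe on chromosome 16. For comparison, 4.35% of all tested probes passed against the first hour at 3 to 6 h, 8.92% at 12 to 24 h, and 1.77% in both in the same direction. The same 3 ID genes were the only ones of the 38 left when the classes were taken relative to the first hour, where 125 probes persisted. Of the 10 first-hour arrays, 3 came from the second scan batch, and what part this had in those 125 was not tested.

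**Figure D3:**
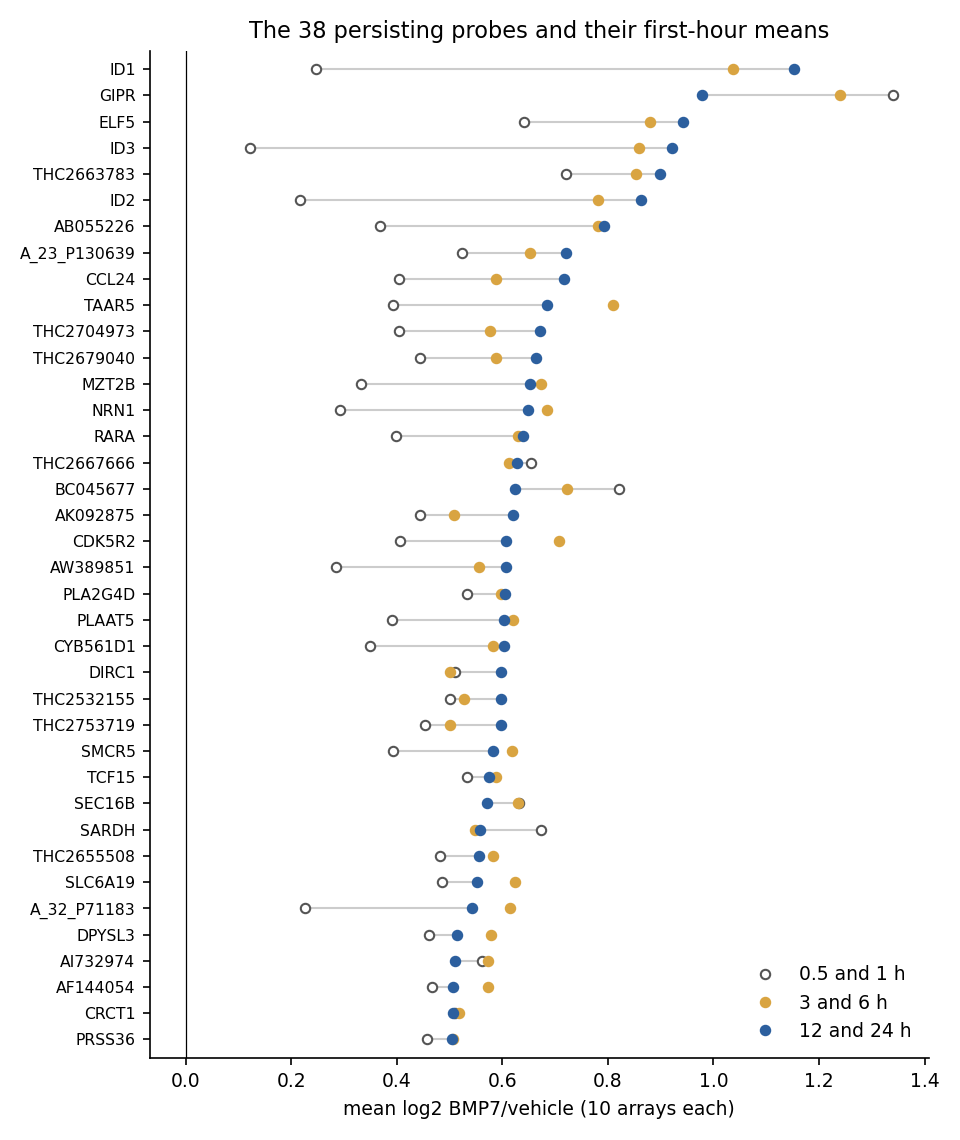
Mean log2 BMP7/vehicle ratio (x axis) of the 38 persisting probes (rows, by gene symbol or the name on the array) in the first hour (open), at 3 and 6 h (tan) and at 12 and 24 h (blue), each over 10 arrays. ID1, ID3 and ID2 started at 0.25, 0.12 and 0.22 and were far higher later, while GIPR was highest in the first hour, at 1.34.

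Among the listed BMP and SMAD target genes, ID1, ID2, ID3, DUSP2 and GATA2 were higher than vehicle in both phases. MSX1 passed in the earlier phase alone and SMAD7 in the later alone, but SMAD7 passed in both without the ZR-75-30 6 h array. The list was chosen with earlier results of these data known, and the paper counts DUSP2 among the genes it newly links to BMP signaling. Counts over the list are therefore a description only. Of 32 genes listed, 15 were tested and 17 did not pass the filter on signal. At 3 to 6 h 6 of the 15 were higher than 0 (6.89% of all probes were) and 1, TGIF1, lower. Without the ZR-75-30 6 h array TGIF1 missed the threshold (limma, mean -0.22, adjusted p = 0.0625). At 12 to 24 h 6 of the 15 were higher (9.35% of all probes) and 0 lower. Their median difference between the phases was 0.054, against 0.00 over the 10031 genes tested. Beside the ID genes, DUSP2, a phosphatase that acts on MAP kinases, had means of 0.48 and 0.47 (SE 0.056 each), and the interval of its difference was -0.18 to 0.15. The highest values were those of MDA-MB-361, in which DUSP2 read 1.48, 1.63, 1.14 and 1.59 from 3 to 24 h, while HCC1954 and MDA-MB-231 read between -0.18 and 0.16. GATA2, a zinc finger transcription factor, had means of 0.40 and 0.46 (SE 0.064 each), with values up to 0.91 at 3 to 6 h and 0.87 at 12 to 24 h, and was at or below 0.084 on all 4 arrays of HCC1954. Both DUSP2 and GATA2 also differed from the first hour in both phases (limma, adjusted p = 0.027 and 0.0278 for DUSP2, 0.0261 and 0.0248 for GATA2). With cell line as a random block, both means of DUSP2 missed the threshold against 0 (limma, adjusted p = 0.0824 and 0.0737). The later mean of GATA2 missed it with normexp and median scaling.

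MSX1, a homeobox gene, had the lowest difference of the 15 BMP target genes tested. At 3 to 6 h it ranged from -0.13 to 1.85 with a median of 0.33 over 9 values, and at 12 to 24 h from -0.67 to 0.90 with a median of -0.18. The phases overlapped, but the later mean was the lower one in 5 of 5 lines. Its means were 0.42 (SE 0.092, adjusted p = 0.00619) and -0.012 (SE 0.086, adjusted p = 0.941), with a difference of -0.43 (SE 0.13, interval -0.70 to -0.17). The unadjusted p of the difference was 0.0027 and the adjusted p 0.585, so MSX1 was not called. The highest value was that of ZR-75-30 at 6 h, and without this array the difference was -0.33 (SE 0.096). The earlier MSX1 mean missed the threshold with scan batch as a further term (mean 0.33) and where cell line was a random block (mean 0.42). In all, 7.65% of the probes tested were lower in 5 of 5 lines.

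Among the SMADs, SMAD7, an inhibitor of the pathway, had means of 0.20 (adjusted p = 0.0884) and 0.26 (adjusted p = 0.0207), and the interval of the difference was -0.15 to 0.29. Only the later mean passed, but without the ZR-75-30 6 h array the earlier SMAD7 mean passed too (0.25, adjusted p = 0.039). The later SMAD7 mean missed the threshold with normexp and loess (mean 0.15) and with median scaling (mean 0.17). With no filter on signal and with line as a random block it missed too (mean 0.26 in both). SMAD6, the other inhibitory SMAD, was above background in both channels on 18 of the 20 arrays and not in the fit. In the fit that left out single dim spots its means were 0.51 (adjusted p = 0.000278) and 0.54 (adjusted p = 0.000147), with a difference of 0.029. In MDA-MB-361 SMAD6 read 1.44, 1.13, 1.32 and 0.95 from 3 to 24 h, the highest of the 5 lines at each of these times. SMAD9, one of the SMADs that BMP receptors phosphorylate, had means of 0.43 and 0.55 in the same fit (adjusted p = 0.00838 and 0.00122), again with its highest values in MDA-MB-361, from 1.08 to 1.48. ID4, the remaining ID gene, was measured on 16 arrays, and its means of 0.091 and 0.043 did not pass (adjusted p = 0.625 and 0.832). HEY1, a transcription factor shared with the NOTCH pathway, passed at 3 to 6 h with a mean of 0.55 (adjusted p = 0.0255) and not at 12 to 24 h with 0.26 (adjusted p = 0.216), but its difference of -0.28 did not pass (unadjusted p = 0.179).

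Of 40 genes listed for the ligands, receptors and other parts of the BMP pathway, 22 were tested, with a median difference of -0.0072, and 2 were higher (6.89% of all probes) and 1 lower (6.7%) than 0 at 3 to 6 h and 0 higher (9.35%) and 2 lower (7.93%) at 12 to 24 h. The receptor genes BMPR1A and BMPR2 differed between the phases by 0.063 (SE 0.099) and 0.033 (SE 0.11), and SMAD4 by 0.013 (SE 0.11). Further probes of BMPR1A had differences of 0.24 (unadjusted p = 0.0144) and 0.080. GDF15, a stress-induced member of the TGF-β superfamily, had means of -0.23 (adjusted p = 0.0262) and -0.48 (adjusted p = 8.48e-05), the later one lower in 5 of 5 lines with a difference of -0.26 (SE 0.091, unadjusted p = 0.0107). All 10 later values of GDF15 were below 0. SKI, a repressor of SMAD signaling, cannot be read, since one probe had a difference of -0.23 and the other of 0.19, higher in all 5 lines.

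None of the genes named by the size of their p passed the adjustment, and they are given as the ones nearest to the threshold (adjusted p = 0.585 for each). Higher later were HSPA1A, the inducible HSP70 chaperone, by 0.31 (SE 0.081, 4 of 5 lines), EEF1A1, a translation elongation factor, by 0.38 (SE 0.10), PLCD3, a phospholipase C, by 0.35 (SE 0.096), STBD1, a glycogen-binding protein, by 0.33 (SE 0.092) and RBM6, an RNA-binding protein, by 0.23 (SE 0.065), the last 4 in 5 of 5 lines (7.18% of all probes were). HSPA1A and EEF1A1 have near-identical copies elsewhere in the genome, so these readings may be shared with them. HSPA1A ranged from 0.012 to 0.40 at 3 to 6 h and from 0.16 to 0.88 at 12 to 24 h, and its later mean of 0.48 passed against 0 (adjusted p = 2.44e-05) while the earlier one of 0.18 did not (adjusted p = 0.0537), although without the ZR-75-30 6 h array it did (0.20, adjusted p = 0.0492). Its 2 further probes had differences of 0.29 and 0.46. The size of these differences moved with the processing. With normexp and median scaling it was 0.041 in HSPA1A, 0.12 in PLCD3, 0.23 in EEF1A1, 0.19 in STBD1 and 0.13 in RBM6. With normexp and loess PLCD3 was at 0.10. With slide as a fixed block HSPA1A was at 0.61, but that fit compares only the 12 and 24 h arrays of T-47D with its 6 h array.

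Lower later were CYBRD1, a ferric reductase, by -0.27 (SE 0.059), MND1, a meiotic recombination protein, by -0.30 (SE 0.073), FAM111B, a protease, by -0.49 (SE 0.12), and the pseudogene MRPL42P5 by -0.30 (SE 0.078, 4 of 5 lines). CYBRD1, MND1 and FAM111B were lower in 5 of 5 lines. MND1 was above 0 on all 10 arrays of 3 to 6 h, from 0.16 to 0.61, and ranged from -0.34 to 0.53 at 12 to 24 h. FAM111B ranged from -0.40 to 0.62 in the earlier and from -0.94 to 0.085 in the later phase, with its lowest difference in T-47D (-0.97). With normexp and loess the differences of FAM111B and MRPL42P5 were -0.25 and -0.19. In each of these genes the values of the 2 phases overlapped.

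**Figure D4:**
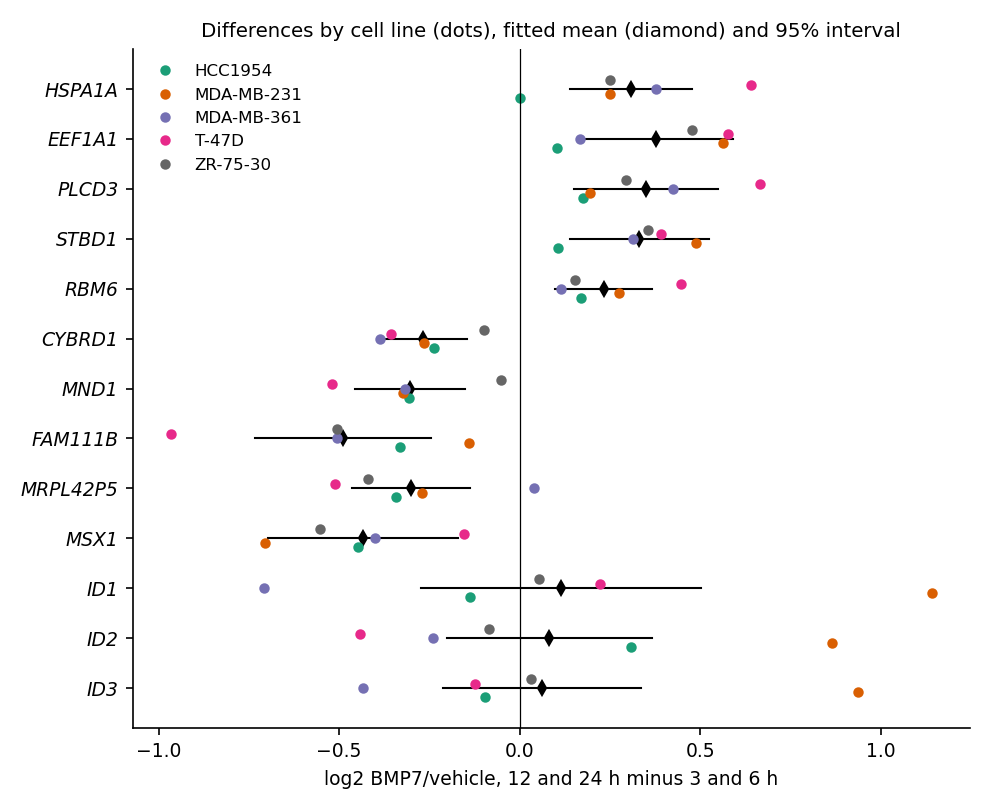
Log2 BMP7/vehicle at 12 and 24 h minus that at 3 and 6 h (x axis) for 9 genes named by p, MSX1 and the ID genes (rows), with 1 dot per cell line, the fitted mean as a diamond and its 95% interval as a bar. The intervals of ID1, ID2 and ID3 span 0 and their dots run from -0.71 to 1.14, while the 5 dots of EEF1A1, PLCD3, STBD1 and RBM6 lie above 0 and those of CYBRD1, MND1, FAM111B and MSX1 below it.

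Of 14 heat shock genes tested, 4 were higher (4.04% of all probes) and 1 lower (4.18%) at an unadjusted p under 0.05, none passed the adjustment, and the median difference was 0.060. Beside HSPA1A these were HSPB8 (0.074 to 0.40, difference 0.32, SE 0.11), HSP90AB1 (0.036 to 0.34, difference 0.31, SE 0.14) and HSP90AA1 (difference 0.25, SE 0.12), while the mitochondrial co-chaperone HSPE1 was lower (0.28 to 0.028, difference -0.25, SE 0.11). Of the further probes of HSP90AA1, one had a difference of -0.21 and the others of 0.17 and 0.25. At 12 to 24 h 4 of the 14 were higher than 0 (9.35% of all probes), namely HSPA1A, HSPB8, HSP90AB1 and DNAJB1. BAG3 was not among them on its brightest probe (difference 0.041). A second BAG3 probe was higher than 0 at 12 to 24 h (limma, mean 0.44, adjusted p = 0.000166), with a difference of 0.25 (unadjusted p = 0.0131).

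Genes of DNA replication and mitosis were in part below vehicle. Of 40 tested, 4 were lower than 0 at 3 to 6 h (6.7% of all probes) and 10 at 12 to 24 h (7.93%), with none higher in either phase. MCM7, a subunit of the replicative helicase, was below 0 on all 20 arrays with means of -0.32 and -0.36. TK1, which makes thymidine monophosphate, had means of -0.11 and -0.36 and a difference of -0.25 (SE 0.096, unadjusted p = 0.0183), and CDC45, a helicase cofactor, had means of -0.21 and -0.35. TOP2A went the other way, with -0.22 and 0.11, higher in 5 of 5 lines (unadjusted p = 0.0402). The median difference of the 40 was -0.027, and no member passed the adjusted test of the difference. Against the first hour, MCM7, TK1 and CDC45 did not pass in the later phase (adjusted p = 0.112, 0.166 and 0.0505). The cell cycle inhibitor CDKN1A had means of 0.24 (adjusted p = 0.0413) and 0.34 (adjusted p = 0.00457), the later one higher in 5 of 5 lines, with an interval of the difference of -0.12 to 0.33.

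Of the immediate early genes, 17 of 25 were tested. JUNB (0.41 and 0.39) and JUND (0.41 and 0.30), both AP-1 subunits, were higher than 0 in both phases but did not differ from the first hour past the threshold. JUN itself had means of 0.042 and -0.21, with a difference of -0.25 (SE 0.078, unadjusted p = 0.00438). MYC was lower in both phases (-0.40 and -0.35) on its brightest probe, whereas a second MYC probe read 0.097 and 0.020. For the metallothioneins, their regulator MTF1 and the zinc transporter SLC30A1, 0 of 10 differed from 0 at 3 to 6 h (6.89% of all probes were higher and 6.7% lower) and 4 were lower at 12 to 24 h (7.93%), with a median difference of -0.12, the lowest of the 18 lists. The metallothionein genes share much of their sequence, so their probes may read each other. The medians of all other lists lay between -0.046 and 0.060, and no listed gene passed the adjusted test.

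**Figure D5:**
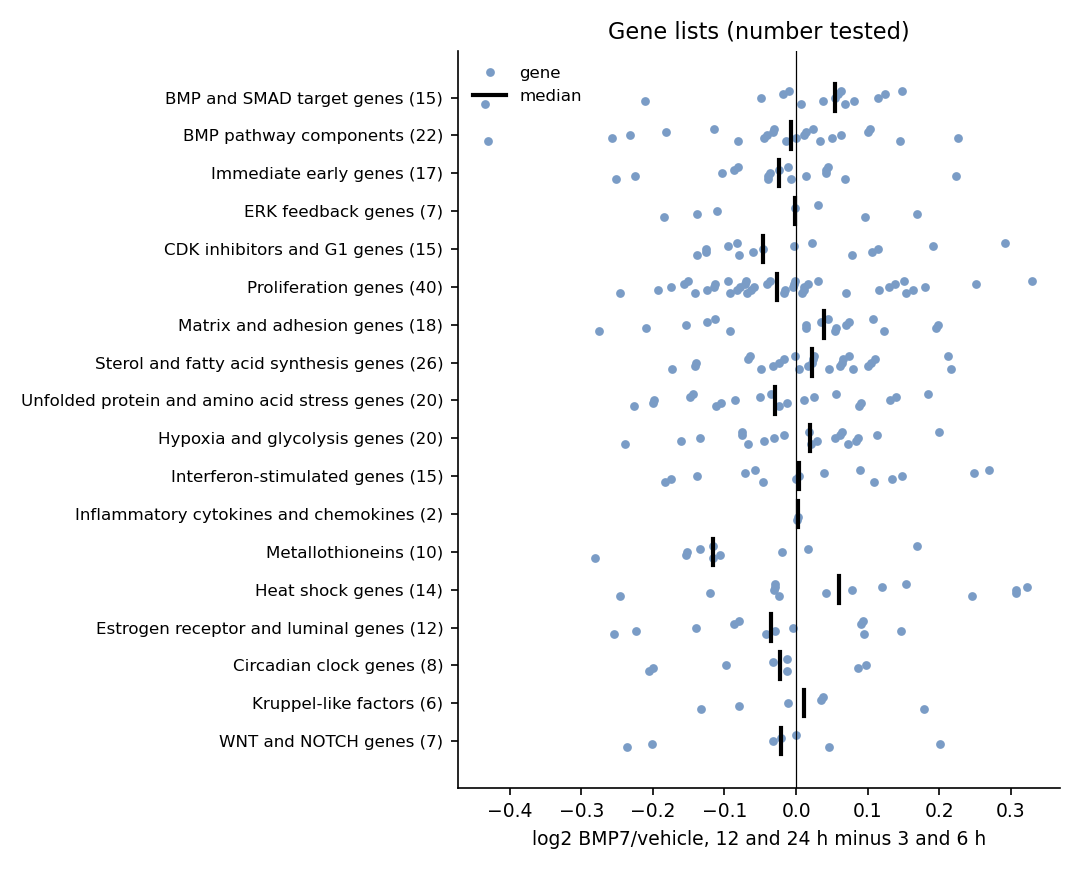
Log2 BMP7/vehicle at 12 and 24 h minus that at 3 and 6 h (x axis) for the tested genes of 18 lists (rows, with the number tested), 1 dot per gene and the median as a bar. The medians lie between -0.12 (metallothioneins) and 0.060 (heat shock genes), and MSX1 (-0.43) is the lowest dot of the BMP target genes.

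Within single lines, changes of 2-fold on both arrays of a phase were few, and since each rests on 1 array per time they have no test. From 20244 (MDA-MB-231) to 24778 (MDA-MB-361) probes per line were measured with both channels well above background. Of these, 14 probes were changed at least 2-fold at 12 and 24 h while under 0.5 in size at 3 and 6 h. Over the 5 lines, 4 of the 14 were up and 10 down. None (0) showed the reverse, a 2-fold change at 3 and 6 h that was gone later. T-47D, the line with 6, 12 and 24 h on 1 slide, held 11 of the 14, and the genes named here were picked after their values were seen. In T-47D, 2 probes of HSPA1A went from -0.37 and -0.41 at 3 h to 1.09 and 1.43 at 24 h, and CLINT1, a clathrin adaptor, from 0.23 to 1.37. The pluripotency factor SOX2 read 0.16, -0.31, -1.05 and -1.08, the nuclear import factor IPO7 -0.10, -0.36, -1.10 and -1.13, and the kinesin KIF21A -0.028, -0.25, -1.04 and -1.05 in that line. Another KIF21A probe had means over the 5 lines of -0.087 at 3 to 6 h and 0.071 at 12 to 24 h, a difference of 0.16. In MDA-MB-231, ASB2, a ubiquitin ligase subunit, went from -0.050 at 3 h to -1.15 at 24 h, and an unnamed probe on chromosome 9 from 0.17 to 1.64 at 12 h and 1.07 at 24 h. The same probe had the largest positive difference of all probes tested, 0.52 (SE 0.12, unadjusted p = 0.000277, adjusted p = 0.585), higher in 5 of 5 lines.

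Among the same measured probes, those changed 2-fold at all of 3, 6, 12 and 24 h numbered 8 up and 1 down. In MDA-MB-361 these were 6, among them DUSP2, SMAD9 and GGTA1, the last at 1.04, 1.59, 1.16 and 1.30. In HCC1954 they were the second probe of ID2 (1.39, 1.23, 1.01 and 1.47) and, downward, TMPRSS9 (-1.82, -1.14, -1.06 and -1.59), a membrane serine protease, and in ZR-75-30 OTUD7A (2.09, 1.82, 1.72 and 1.03), a deubiquitinase. MDA-MB-231 and T-47D had none (0).

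The difference between the phases was also compared between the lines and within each phase. The F test of line by phase called 0 probes, with 175 (0.982%) at an unadjusted p under 0.05 and a smallest adjusted p of 1. Its smallest unadjusted p belonged to ZNF775, a zinc finger gene (-1.32 in ZR-75-30, -0.34 to 0.37 in the other lines, and 1.51 on the ZR-75-30 6 h array), followed by ID3, CTNNB1, the gene of β-catenin (1.68 in T-47D, -0.094 to 0.28 elsewhere), the vesicle GTPase gene RAB30 and SSR3, a part of the translocon. Between 24 and 12 h 0 probes were called, with 1517 (8.51%) unadjusted, and between 6 and 3 h 0, with 329 (1.85%) unadjusted (limma, smallest adjusted p = 0.579 and 0.999).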

How the data were processed

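The 2-colour Agilent arrays were read from the deposited Feature Extraction output (version 9.5.1.1 per the file headers, genome build hg18), in which the authors' log10 ratios (Cy5 BMP7 over Cy3 vehicle) and the intensity of each channel are already background-corrected and dye-normalized. A series matrix of log2 ratios, deposited beside them, was an alternative. Columns with the software's p-value for single spots were not used. Ratios were changed to log2, control and outlier spots left out, probes averaged, and each array set to a median of 0. Symbols came from the RefSeq gene table. Probes well above background in both channels on all 20 arrays were tested with limma 3.58.1 (R 4.3.3), cell line as a fixed block, and Benjamini-Hochberg adjustment at 0.05, on a fit tested on simulated data. The number of arrays limits the precision. The members, classes and gene lists were chosen with earlier results of these data known. A listed gene was read from its brightest tested probe. Genes named were the 5 per direction with the smallest p, up to 5 per class, listed genes and the 5 with the smallest line by phase p, apart from items not reported here. Alternatives were the normalization (normexp with an offset of 50), filters, blocks, baseline, size limit and leaving out lines or arrays.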

Additional observations from a re-analysis of the deposited data

Results flagged for a closer look

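In 48 sets of 9 or 10 arrays of one phase (the genes named by rule and the spread of the arrays), 7 values stood apart from the others by Dixon's ratio. For independent draws from 1 population, chance alone gives this in about 1 in 20 sets. These sets share arrays, mix lines and times, and hold genes named from the same values, so that rate need not apply. Of the 7 values, 5 were on the ZR-75-30 6 h array: the SD of its log2 ratios (0.60), MSX1 (1.85), ZNF775 (1.51) and MRPL42P5 (0.73) as the highest of their sets, with TGIF1 (-1.11) the lowest of its set on the same array. Without that array the difference between the phases was -0.33 in MSX1 and -0.26 in MRPL42P5. On the T-47D 6 h array, RBM6 was the highest (0.33) of the earlier phase. TGIF1 was highest (0.48) at 12 h in MDA-MB-231.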

How the results depend on the processing

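No probe was called between the phases under any alternative run, with 228 (scan batch as a further term) to 3994 (without the MDA-MB-231 24 h array) probes at an unadjusted p under 0.05. The count of persisting probes was 153 with normexp and median scaling (which moved the median difference of all probes from -0.0025 to -0.0947), 81 with no filter on signal, 70 with single dim spots left out, 125 relative to the first hour and 1 with a limit of 1 on the means, and 30 to 57 with a line or array left out. Line by phase gave 46 calls with no filter. The small differences of ID1, ID2, ID3 and ELF5 turned sign, whereas that of GIPR did not (-0.41 to -0.15). With median scaling they were -0.021 (ID1), -0.17 (ELF5), -0.064 (ID3) and -0.015 (ID2). Adding scan batch to the model, or keeping only arrays of the first batch, gave -0.025 (ID1), -0.14 (ELF5) and -0.061 (ID3). With slide as a fixed block the phases are compared only within T-47D, its 12 and 24 h arrays against its 6 h array. That fit gave -0.090 (ELF5), -0.20 (ID3) and -0.33 (ID2), but 0.42 for ID1, and it does not speak for the other lines. Without the ZR-75-30 6 h array ELF5 was at -0.034. With a line or array left out the range was -0.14 to 0.32 for ID1, -0.034 to 0.16 for ELF5, -0.16 to 0.19 for ID3 and -0.11 to 0.21 for ID2. The 3 to 6 h mean of MSX1, then at 0.33, missed the threshold with scan batch as a term. Both means of DUSP2 (0.48 and 0.47) missed it with cell line as a random block. The causes were not tested. Cell line paired the phases as a block, and with 1 difference per cell line there were also 0 calls, with 2833 probes at an unadjusted p under 0.05.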
